A study of Mus musculus with 3 samples.

Results

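The cells described here are the non-dendritic, non-cycling cells of the class that the deposited annotation calls Int Mo/Mac, an abbreviation read here as intermediate between monocyte and macrophage and not spelled out in the labels. A cell is a member where its class is Int Mo/Mac, its scANVI name is none of DC1 to DC4, and the larger of its S and G2M cell cycle scores is below 0.1. These conditions were met by 434 of the 12668 annotated cells. The members were thus chosen by class, scANVI name and cycle scores, all computed from the expression of the same cells, so that what these values fix about the members is a description and not a result.

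The study profiled immune cells of the mouse brain, taken from the right hemisphere and selected for CD45, by droplet single-cell RNA sequencing, in 3 libraries with 1 library per group. The NT library came from animals bearing no tumor with a labelled age of 0 to 2 weeks, the LGG library from animals with low grade gliomas at 3 to 4 weeks, and the HGG library from animals labelled HGG at 6 to 8 weeks. The last library is titled as having no tumor but named and described as HGG, so that every direction given for the library labelled HGG rests on those labels. The protocol mentions injected cells, and the labels leave unsaid what these cells were, whether age counts from birth or injection, which strain was used and how many animals made up a library. Tumor group, labelled age and library cannot be told apart. There is no replicate, so no test between groups exists and no p-value is given. The 95% intervals (exact Clopper-Pearson ones for shares, Katz log ones for ratios) cover counting error alone. To be called higher or lower, a share had to differ by a ratio of at least 1.5, with exact intervals that did not overlap.

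Monocytes leave the blood, enter inflamed or tumor-bearing tissue and there become macrophages. In mice, classical monocytes carry Ly6C, the product of Ly6c2 and a related gene, and the chemokine receptor CCR2, which draws them into tissue. Both fall as the cells mature, while macrophage genes rise. Ms4a7 encodes a membrane protein that in the brain marks macrophages other than microglia, and Lyz2 encodes the lysozyme of monocytes, macrophages and neutrophils. Border associated macrophages are the resident macrophages of meninges, perivascular spaces and choroid plexus, and microglia those of the brain tissue itself. The levels of Ly6c2, Ccr2, Ms4a7 and Lyz2 were not analysed here, since the table holds values per cell and none per gene. The label was set instead against the other names deposited for the same cells.

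The libraries held 3544 (NT), 5024 (LGG) and 4100 cells (HGG), with 32685080 to 61872213 UMIs summed over the cells of a library and a median of 8826.5 to 12907.5 UMIs per cell. Of 12653 distinct barcodes, 15 occurred in more than 1 library. Of the members, 2 carried such a barcode, and 0 members shared one with another member.

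The Int Mo/Mac class held 959 cells, of which the members were 45.3% (42.1 to 48.5%). The condition on dendritic names alone removed 160 cells, the limit on cycle scores alone removed 331, and both removed a further 34. Members were 63 of 125 class cells in NT (50.4%, 41.3 to 59.5%), 209 of 474 in LGG (44.1%, 39.6 to 48.7%) and 162 of 360 in HGG (45.0%, 39.8 to 50.3%). The intervals overlap, but the cells taken away differed in kind. Cells with a DC1 to DC4 name numbered 4 in NT, 142 in LGG and 48 in HGG. The first SingleR column called 135 of these 194 cells dendritic, and the second VHove column called 149 of them cDC, the usual short form for conventional dendritic cells. Among class cells outside these names, the share at or above the cycle limit was 47.9% in NT (38.8 to 57.2%), 37.0% in LGG (31.8 to 42.5%) and 48.1% in HGG (42.4 to 53.8%). The limit fell in a sparse range of scores. The highest members had larger scores of 0.0910, 0.0913 and 0.0951, the lowest removed cells 0.10004, 0.102 and 0.104, and only 13 of these class cells lay between 0.08 and 0.12. The removed cycling cells had a median larger score of 0.457, against -0.00714 in members.

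**Figure D1:**
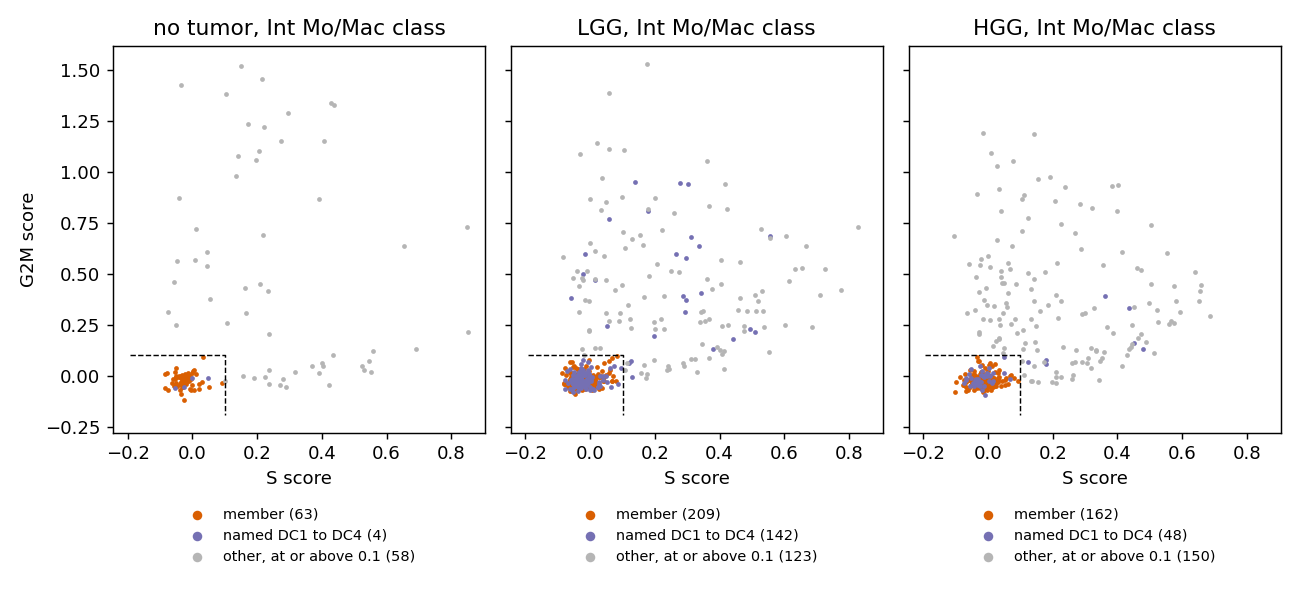
S score against G2M score, both without unit, for each cell of the Int Mo/Mac class in the 3 libraries, with the limit of 0.1 as a dashed line. Members (63, 209 and 162 cells) crowd near 0 on both axes, most cells with a dendritic name lie among them, and the other removed cells spread up to a G2M score of about 1.5.

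Members were a larger share of all cells in both tumor libraries than in NT. They made up 1.78% of NT cells (1.37 to 2.27%), 4.16% of LGG cells (3.62 to 4.75%) and 3.95% of HGG cells (3.38 to 4.59%). The share was 2.34 times as large in LGG as in NT (1.77 to 3.09) and 2.22 times as large in HGG (1.67 to 2.96), both called higher. Between both tumor libraries the ratio was 0.9498 (0.777 to 1.16), with no call. These calls stand among many. Of 14 classes with enough cells, 64.3% were called higher in LGG than in NT and 42.9% were called higher in HGG than in NT, where 28.6% were called lower, so that a higher share was common among the classes as well. In HGG against LGG, 7.14% of the classes were called higher and 42.9% lower, and the members were in neither group.

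The higher share was not seen once microglia left the denominator. Microglia here means the classes Microglia and Activated Microglia together. The latter held 0 cells in NT, 453 in LGG and 348 in HGG. Members were 9.45% of the cells other than microglia in NT (7.33 to 11.9%), 8.33% in LGG (7.28 to 9.48%) and 9.14% in HGG (7.84 to 10.6%). The ratios to NT were 0.882 in LGG (0.674 to 1.15) and 0.967 in HGG (0.733 to 1.28). Among macrophages and monocytes alone, members were 11.7% in NT, 12.2% in LGG and 10.1% in HGG, with ratios to NT of 1.04 (0.7997 to 1.36) and 0.865 (0.658 to 1.14). Members thus held a like share of the macrophages and monocytes in the 3 libraries within counting error, although intervals this wide do not show that the shares were equal. Among all myeloid cells, microglia included, the ratios were 2.67 in LGG and 2.24 in HGG. More members and fewer microglia cannot be told apart from shares alone.

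**Figure D2:**
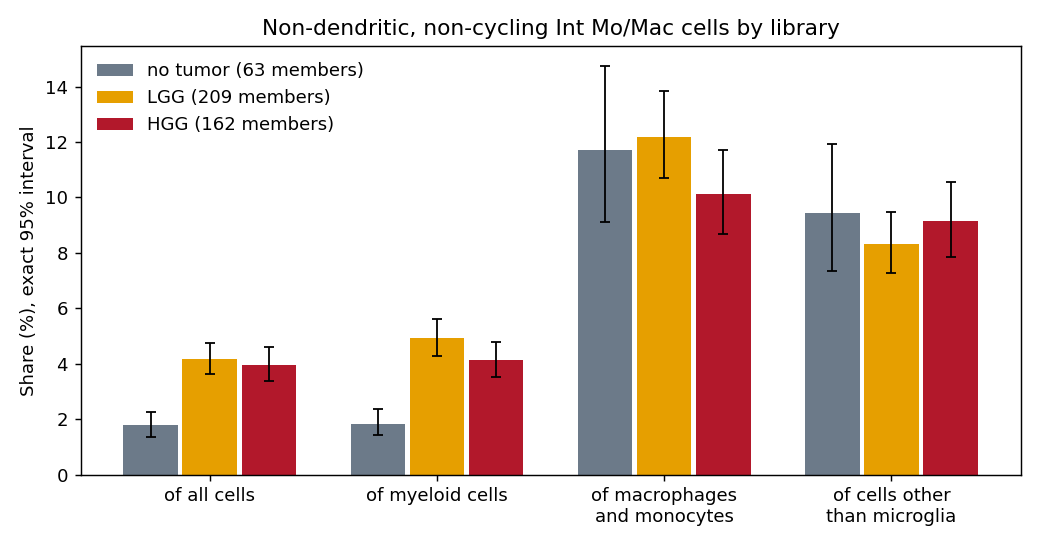
Members as a percent of 4 sets of cells in each library, with exact 95% intervals as bars. The share of all cells and of myeloid cells is lowest in NT (1.78% and 1.84%), while the intervals of the 3 libraries overlap for macrophages and monocytes and for cells other than microglia.

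The members fell into 5 clusters of the deposited clustering at resolution 1.5, and all but 2 cells of these clusters were of the Int Mo/Mac class. Cluster 15 held 248 members (57.1%), cluster 16 held 138 (31.8%), cluster 20 held 25, cluster 11 held 15 and cluster 21 held 8. Nearly all of cluster 15 were members, at 248 of its 268 cells, against 138 of 238 in cluster 16 and 25 of 62 in cluster 20. The 15 members of cluster 11 were 4.41% of a cluster of 340 cells. On the deposited map, the members of clusters 15 and 16 formed adjoining fields, cluster 15 beside the border associated macrophages, while the members of cluster 20 lay apart.

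**Figure D3:**
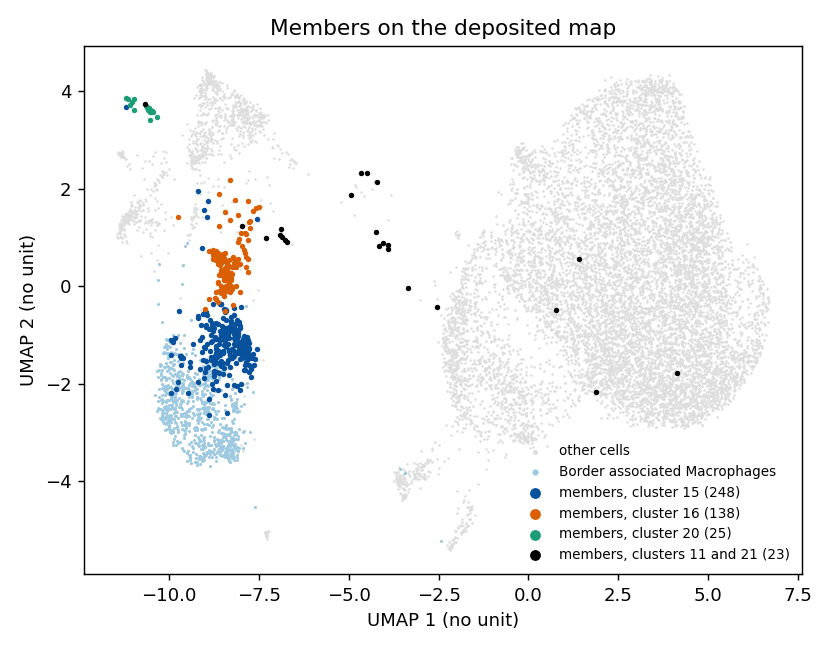
The deposited UMAP of all 12668 cells (axes without unit), with members coloured by cluster and border associated macrophages in light blue. Members of cluster 15 (248) adjoin the border associated macrophages, those of cluster 16 (138) lie next to them, and the 25 of cluster 20 lie in a separate field.

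Cluster 15 was the macrophage end of the members by name. The second VHove column called 237 of its 248 members BAM (95.6%), the usual short form for border associated macrophages, and cell.label called 222 of them Macrophages cluster 1. By scANVI, 214 were TAM 1, and the first SingleR column called 189 macrophages and 59 microglia. The second SingleR column called 203 macrophages and 9 monocytes. By the first VHove column, 150 were TAM 1 and 91 were TAM 2 (36.7%). TAM, usually read as tumor-associated macrophage, was also given in the library without tumor, where 32 members were TAM 1 by scANVI. The class Border associated Macrophages carried similar names, with 94.2% BAM by the second VHove column and 91.95% TAM 1 by scANVI over its 845 cells. Glioma associated macrophages did not, with 18.3% BAM and 94.4% TAM 2 over 1207 cells. Of the microglia class, 98.5% were TAM 2 by scANVI.

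The deposited clusterings differ on whether cluster 15 stands apart from border associated macrophages. At resolution 0.1, 243 members of cluster 15 and 133 of cluster 16 shared 1 cluster of 1331 cells with 834 border associated macrophages. From resolution 0.2 to 0.7, 238 members of cluster 15 still shared a cluster with 832 to 834 of them, and the members of cluster 16 were mostly apart. At 0.8 and 0.9, all 248 members of cluster 15 lay with 255 and 307 border associated macrophages. From resolution 1 upward the cluster that held most of them contained between 0 and 12. Members of cluster 15 were thus grouped with border associated macrophages at coarse resolution and apart from them at fine resolution. The Int Mo/Mac class of 959 cells nearly coincided with 5 whole clusters at resolution 1.5, which held 961 cells. That cluster 15 held 0 border associated macrophages there is therefore largely fixed by the class label. The separation at and near resolution 1.5 is not independent of that label. The grouping at coarse resolution is not fixed in this way.

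Cluster 16 held most of the members named monocytes in each column, although not every column put monocytes first in it. The second SingleR column called 111 of its 138 members monocytes (80.4%) and cell.label called 82, against 63 in the first VHove column, 43 in the second VHove column, 40 in the first SingleR column and 37 in scANVI. The other main names were TAM 1 by scANVI with 94 members and macrophages by the first SingleR column with 84. The second VHove column split the cluster almost evenly, with 47 members named BAM, 47 named cDC and 43 named monocytes. How many of these cells count as monocytes thus depended on the column by a factor of 3.

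A small core was called monocytes by every column. Of the 434 members, 30 were named Monocytes in all 6 name columns, with 7 in NT (11.1% of members, 4.59 to 21.6%), 15 in LGG (7.18%, 4.07 to 11.6%) and 8 in HGG (4.94%, 2.16 to 9.50%). All 30 lay in cluster 16. Among all cells of the study 32 were so named, and none of the 32 was in the class called Monocyte, whose 38 cells were called monocytes by scANVI in 0 cases, by the second SingleR column in 1 and by the second VHove column in 2. The cells that the 6 columns jointly call monocytes were therefore almost all members of the Int Mo/Mac class. This did not hold for looser counts. Of 94 cells named Monocytes in at least 3 columns, 59 were members and 16 were of the class Neutrophil. Of 83 cells so named by scANVI, 38 were members and 24 were of the class Neutrophil. At resolution 3, cluster 16 separated into a part with 109 members and a part with 28 members, 5 in NT, 15 in LGG and 8 in HGG. All 28 were named Monocytes in all 6 columns, and 20 of them had the fine SingleR name MO.6C+II-, which in the naming scheme of the ImmGen reference stands for monocytes with Ly6C and without MHC class II. This part had a median of 8246 UMIs per cell in LGG against 18956 in the part with 109 members, and of 9379 against 13979.5 in HGG. In NT the medians were close, at 9953 and 10099.

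Agreement on monocytes thinned out quickly outside that core. A name of Monocytes in at least 1 of the 6 columns was carried by 164 members, in at least 3 columns by 59, and in none by 270. At least 1 such name was held by 23.8% of NT members (14.0 to 36.2%), 49.8% of LGG members (42.8 to 56.7%) and 27.8% of HGG members (21.04 to 35.3%). LGG was highest by this loose count, while by the strict count of all 6 columns the 3 intervals overlapped.

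Across all members, TAM 1 was the most frequent scANVI name with 315, before TAM 2 with 56 and Monocytes with 38. The first SingleR column called 274 macrophages, 105 microglia and 42 monocytes. The second called 226 macrophages, 127 monocytes and 69 microglia. All of these columns put macrophages first, and they ordered microglia and monocytes differently. The cell.label column gave Macrophages cluster 1 to 273, Monocytes to 111 and Microglia to 12. The first VHove column gave TAM 1 to 200, TAM 2 to 130 and Monocytes to 64, and the second gave BAM to 287, cDC to 62 and Monocytes to 45. Among fine SingleR names the most frequent were MF.11C-11B+ with 113 members, Microglia with 110 and MF.103-11B+24- with 72.

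**Figure D4:**
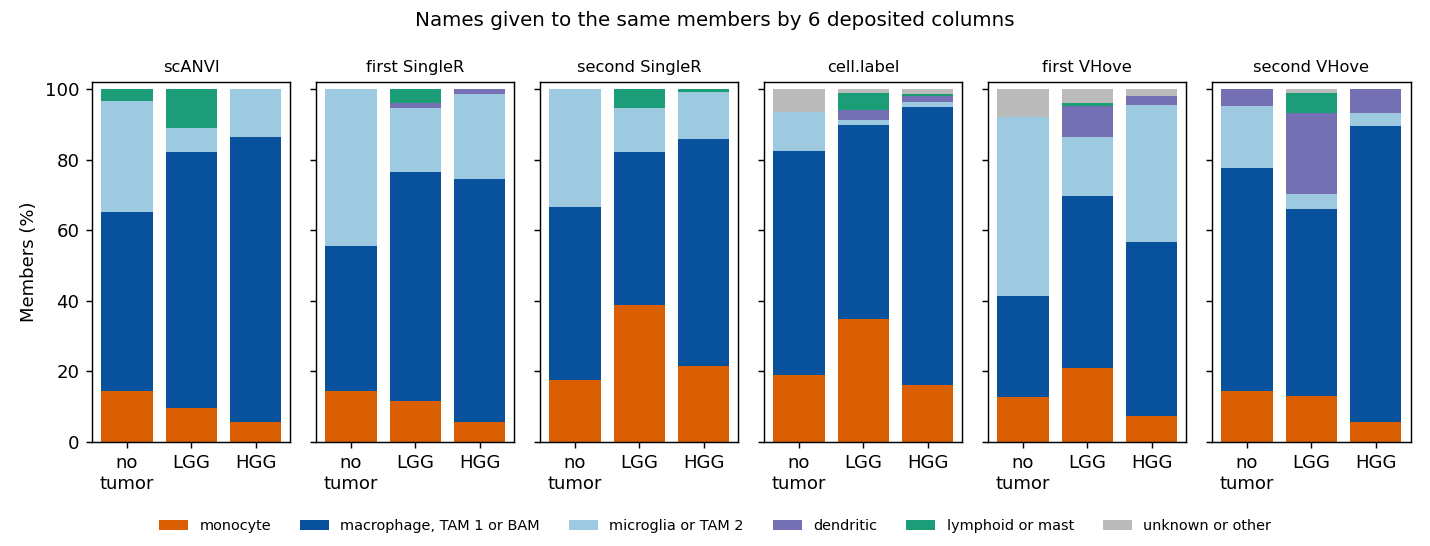
Percent of members with each kind of name in 6 deposited name columns, by library. Names were grouped for display, with TAM 1 and BAM beside macrophages and TAM 2 beside microglia. The microglia or TAM 2 part is largest in NT in all 6 columns, and the monocyte part of the second SingleR, cell.label and first VHove columns is largest in LGG.

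Members in NT carried microglia-side names more often than members in the tumor libraries. Such names were not particular to microglia. The first SingleR column gave Microglia to 98.1% of glioma associated macrophages and 14.0% of border associated macrophages. TAM 2 by the first VHove column was given to 42.1% of border associated macrophages. The first SingleR column called 44.4% of NT members microglia (31.9 to 57.5%), 18.2% of LGG members (13.2 to 24.1%) and 24.1% of HGG members (17.7 to 31.4%). Macrophages were 41.3% in NT (29.0 to 54.4%), 65.1% in LGG (58.2 to 71.5%) and 69.1% in HGG (61.4 to 76.1%). Both tumor libraries were called lower for microglia, with ratios to NT of 0.409 in LGG and 0.542 in HGG, and higher for macrophages, with 1.58 and 1.68. The higher share of macrophages was not shared by all columns. Macrophages by the second SingleR column had ratios to NT of 0.885 in LGG and 1.305 in HGG, and Macrophages cluster 1 by cell.label and BAM by the second VHove column both stood at 0.836 in LGG, with no call. Microglia was also called lower than in NT by the second SingleR column (0.373 in LGG and 0.407 in HGG) and by the second VHove column (0.247 and 0.212), as was TAM 2 by scANVI (0.211 and 0.428). TAM 2 by the first VHove column was called lower in LGG (0.330, 0.224 to 0.486) and not in HGG (0.766, 0.561 to 1.04). Of 18 names tested over the 6 columns, 22.2% were called higher and 27.8% lower in LGG than in NT, and 16.7% were called higher and 22.2% lower in HGG than in NT. The columns name the same cells, so these calls are not separate evidence. Members in NT were also shallower, with a median of 7753 UMIs against 15213 and 15305.5. The part of depth in the names was not tested beyond the common range of UMIs, 2985.2 to 14346.3. There, 39.0% of NT, 68.7% of LGG and 69.8% of HGG members were macrophages by the first SingleR column. Microglia and TAM 2 names were not examined in that range.

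Between both tumor libraries, monocyte names were less frequent and BAM names more frequent in HGG. Monocytes by the second SingleR column were 38.8% of LGG members (32.1 to 45.7%) and 21.6% of HGG members (15.5 to 28.7%), a ratio of 0.557 (0.397 to 0.783). The ratio was 0.459 (0.309 to 0.684) by cell.label and 0.352 (0.192 to 0.644) by the first VHove column, and all 3 were called lower. The remaining 3 columns gave ratios of 0.430 to 0.581 with overlapping exact intervals. BAM by the second VHove column was 53.1% in LGG (46.1 to 60.0%) and 84.0% in HGG (77.4 to 89.2%), a ratio of 1.58 (1.37 to 1.83), called higher. The cDC name of that column was carried by 48 LGG and 11 HGG members, a ratio of 0.296 (0.159 to 0.551), called lower, and TAM 2 by the first VHove column had a ratio of 2.32 (1.62 to 3.32), called higher. In this comparison 11.1% of the 18 names were called higher and 22.2% lower. Within the common range of UMIs the difference in monocytes by the second SingleR column was not seen. These were 34.9% of LGG (24.8 to 46.2%) and 34.9% of HGG members (23.3 to 48.0%). BAM by the second VHove column stood at 63.9% in LGG (52.6 to 74.1%) and 79.4% in HGG (67.3 to 88.5%). Monocyte names of the other columns were not examined in that range.

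The clusters differed between libraries along with the names. Cluster 15 held 55.6% of members in NT (42.5 to 68.1%), 47.4% in LGG (40.4 to 54.4%) and 70.4% in HGG (62.7 to 77.3%). Cluster 16 held 30.2% (19.2 to 43.0%), 38.8% (32.1 to 45.7%) and 23.5% (17.2 to 30.7%). The HGG to LGG ratio was 1.49 for cluster 15 (1.25 to 1.77), just short of a call, and 0.605 for cluster 16 (0.437 to 0.839), called lower. As a share of all cells, members of cluster 15 were 2.00 times as frequent in LGG as in NT (1.36 to 2.93) and 2.82 times as frequent in HGG (1.93 to 4.10), both called higher. Members of cluster 16 were 3.01 times as frequent in LGG as in NT (1.83 to 4.95), called higher, and 1.73 times in HGG (0.999 to 2.99), without a call. In HGG against LGG the same share was 0.575 for cluster 16 (0.392 to 0.843), called lower. Of 23 whole clusters, counted with members and other cells, 47.8% were called higher in LGG than in NT and 34.8% higher in HGG than in NT. In HGG against LGG, 43.5% were called lower, so that none of these directions was rare. Cluster 16 as a whole, with 65 cells in HGG and 23 in NT, was called higher in HGG than in NT.

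The gap between LGG and HGG in cluster 16 varied with depth. Below 5000 UMIs, cluster 16 held 4 of 23 members in LGG (17.4%, 4.95 to 38.8%) and 1 of 15 in HGG (6.67%, 0.169 to 31.9%), too few to compare. Among members with 5000 to 10000 UMIs, it held 15 of 42 in LGG (35.7%, 21.6 to 52.0%) and 10 of 23 in HGG (43.5%, 23.2 to 65.5%). From 10000 to 20000 UMIs it held 30 of 68 in LGG (44.1%, 32.1 to 56.7%) and 22 of 87 in HGG (25.3%, 16.6 to 35.7%). From 20000 UMIs upward it held 32 of 76 (42.1%, 30.9 to 54.0%) and 5 of 37 (13.5%, 4.54 to 28.8%). The exact intervals of LGG and HGG overlapped in the bins up to 20000 UMIs and lay apart in the deepest bin. The common range of UMIs ends at 14346.3, so it leaves out the deepest bin and part of the bin from 10000 to 20000 UMIs. Within that range the HGG to LGG ratio was 1.01 (0.655 to 1.56). The Mantel-Haenszel ratio over 10 strata of UMIs, which keeps all members, was 0.614 (0.440 to 0.857).

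**Figure D5:**
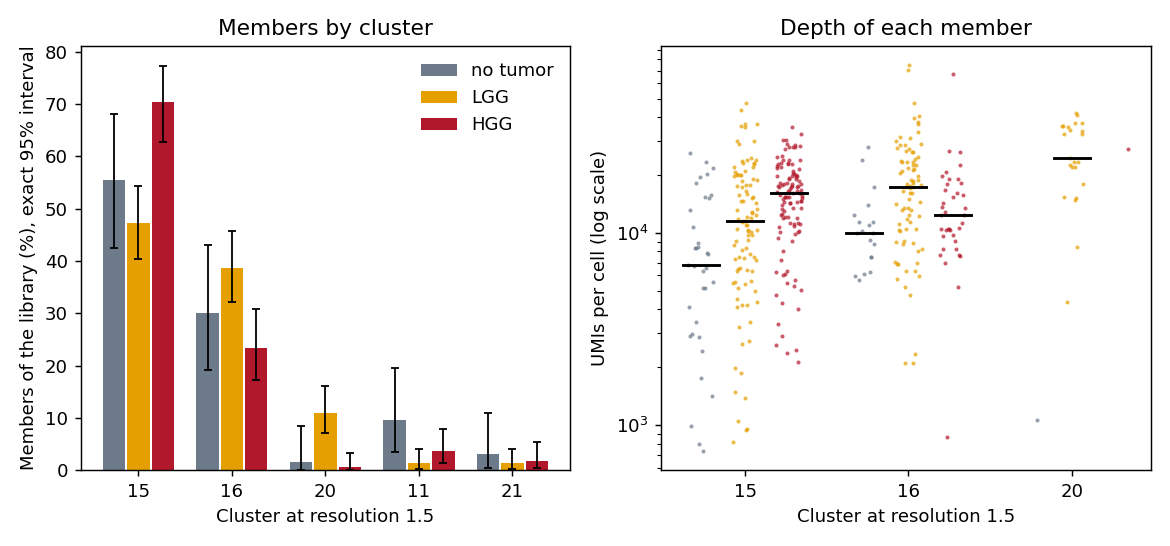
Left, percent of members in each cluster at resolution 1.5 by library, with exact 95% intervals as bars. Right, UMIs per member on a log scale for clusters 15, 16 and 20, 1 point per cell, with the median as a black line where more than 5 cells were present. HGG has the largest share in cluster 15 (70.4%) and its deeper cells there, with a median of 16096.5 UMIs, while cluster 16 is deepest in LGG, with 17376.

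Depth itself differed by library and cluster. Members had medians of 7753 UMIs in NT (732 to 27947 over cells), 15213 in LGG (814 to 74607) and 15305.5 in HGG (869 to 66940). The median was 1.962 times that of NT in LGG and 1.97 times in HGG, a rise past 1.5 that 42.9% of 7 classes had in LGG and 57.1% in HGG. In cluster 15 the medians were 6842 in NT, 11529 in LGG and 16096.5 in HGG. In cluster 16 they were 9953, 17376 and 12377, so that the order of the tumor libraries turned between both clusters. Members had medians of 2130 genes in NT, 3122 in LGG and 3211.5 in HGG, a gap that shrank at matched depth. At 5000 to 10000 UMIs the medians were 2039, 2029 and 2208 genes, and at 10000 to 15000 UMIs they were 2800, 2825 and 2919.5. Members held 1.78% of all UMIs of the NT library, 5.90% in LGG and 4.01% in HGG.

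The mitochondrial share of UMIs followed the whole libraries. Its median in members was 2.48% in NT, 3.53% in LGG and 4.09% in HGG, against 2.33%, 3.32% and 4.13% over all cells. Cluster 15 had higher medians than cluster 16 in all 3 libraries, with 2.84%, 3.69% and 4.33% against 2.46%, 2.90% and 3.27%. The ribosomal share was highest in LGG members, at 0.421% against 0.350% in NT and 0.356% in HGG, and over all cells LGG was not the highest, with 0.384% in NT, 0.369% in LGG and 0.360% in HGG.

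Part of the members carried names that go against a monocyte or macrophage identity. A dendritic name in at least 1 of 5 columns was held by 75 members, 3 in NT, 61 in LGG and 11 in HGG, or 29.2% of the LGG members (23.1 to 35.9%). Of these 75, 47 were in cluster 16, 13 in cluster 20 and 8 in cluster 15. A dendritic name in at least 2 columns was held by 16 members. The scANVI column called 25 members T cells, B cells or mast cells, 2 in NT, 23 in LGG and 0 in HGG, where 0 of 162 allows a share of up to 1.85% by the limit of 3 counts and up to 2.25% by the exact interval. No dendritic, lymphoid or mast name in any of the 6 columns was left in 60 of 63 NT members (95.2%), 141 of 209 LGG members (67.5%) and 150 of 162 HGG members (92.6%). Most of the contrary names were in LGG.

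Cluster 20 held most of the lymphoid names. Of its 25 members, 23 came from LGG and 1 each from NT and HGG, and scANVI called 11 of them T cells and 7 TAM 2. The first VHove column called 13 of them DC4, and the second called 11 T cells and 7 microglia. Other columns put other names first. The first SingleR column called 13 microglia, and the second called 10 microglia and 7 T cells. The cell.label column called 11 monocytes and 8 CD8 T cells. In the deposited doublet column, 12 of the 25 were called doublets. At all but the lowest of the 22 resolutions, 24 or 25 of them shared a cluster of 62 to 68 cells. Its LGG members had a median of 24395 UMIs. Its share of all cells was 16.2 times as large in LGG as in NT (2.19 to 120.1), from 23 cells against 1, and the part of doublets in that ratio was not tested. In cluster 11, the first SingleR column called 15 of 15 members microglia, while cell.label called 10 microglia and 4 macrophages. In cluster 21 the columns differed. There cell.label called 5 of 8 members dendritic, scANVI called 5 TAM 1, and the first SingleR column called 4 microglia.

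Doublet calls covered 35 members (8.06%, 5.68 to 11.04%), 4 in NT, 23 in LGG and 8 in HGG, against 3.47% of all cells and 3.91% of border associated macrophages. The class cells that were not members had more, at 82 of 525 (15.6%). Members called doublets had a median of 30280 UMIs and the others 12645. With the members of clusters 15 and 16 that carried no contrary name, a set of 329 cells with 51 in NT, 132 in LGG and 146 in HGG, the share of all cells was 1.83 times that of NT in LGG and 2.47 times in HGG, both called higher, and the HGG to LGG ratio was 1.36 (1.07 to 1.71), without a call.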

How the data were processed

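The data were a single table with 1 line per cell (12668 cells), and 48 of its 64 columns were read, leaving 16 columns unused. Per the labels' protocols, tissue was digested with papain, CD45-positive cells were selected, and Cell Ranger 3.0.2 mapped and counted the reads on mm10. The submitters' processing notes also name Seurat 4. For cell filters and the doublet column, the method is not given in the sources used here. The authors deposited, for each cell, the UMI count and the count of detected genes, the percent of mitochondrial and ribosomal UMIs, an S and a G2M score, cluster numbers at 22 resolutions and several parallel cell names, per the file headers. Values per gene were not analysed here, so the 4 marker genes could not be read and UMIs could not be thinned. First and second, for SingleR and VHove, follow the header names.

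Cells were assigned to groups by library name. Classes, clusters at resolution 1.5 and names needed 20 cells to be counted, and the 3 most frequent names of a column are printed. Names printed beyond these were chosen after their values were seen. Members, lists and call rule were chosen with earlier results of these data known. Doublets stayed in as deposited except where an alternative removed them. Where a share was 0, its upper limit was set by 3 counts. The common range of UMIs runs from the highest lower decile to the lowest upper decile of UMIs per cell over the 3 libraries, and it held 41 members in NT, 83 in LGG and 63 in HGG. Interval code was tested on simulated counts. Python 3.11.15 was used with numpy 2.4.6, pandas 2.3.3, scipy 1.17.1 and matplotlib 3.10.9. Alternatives changed the cycle limit, the dendritic names, filters on cells, the range of UMIs and the denominator.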

Additional observations from a re-analysis of the deposited data

How the results depend on the processing

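Of 189 alternative values, 164 stayed within the interval of the main value, whatever their direction or call. A further 21 lay outside it, and 4 lay outside it with the direction of a called main ratio reversed. Changes of direction from a main ratio without a call were not counted among these 4. An example is the members' HGG to LGG ratio, 0.9498 in the main setting and 1.46 within the common range of UMIs. The cluster 16 ratio of LGG to NT, 1.29 without a call, was called higher in the whole Int Mo/Mac class. That value, 1.72, lay within the main interval. The ratio of the members' share of all cells to NT met no call with cells other than microglia as denominator (0.882 in LGG and 0.967 in HGG) or with macrophages and monocytes (1.04 and 0.865), and it was called higher under every other alternative for which a call was made. The HGG to LGG ratio rose to 1.46 within the common range of UMIs and to 1.36 for members of clusters 15 and 16 without contrary names, with no call. With phase G1 in place of the score limit, members were 33.6% of the class in NT, 26.6% in LGG and 26.4% in HGG. The common range of UMIs gave 58.0% of the class in LGG and 55.8% in HGG, medians of 8443 UMIs in LGG and 10333 in HGG, a mitochondrial median of 3.64% in HGG, 34.9% monocytes by the second SingleR column in HGG and 63.9% BAM by the second VHove column in LGG. A limit of 5% mitochondrial UMIs gave medians of 3.19% in LGG and 3.83% in HGG. In the common range, the cluster 15 ratios were 1.34 for LGG to NT and 1.02 for HGG to LGG, and the cluster 16 ratio of HGG to LGG was 1.01. Over all cells the ratios to NT were 2.00 and 2.82 for cluster 15, and 3.01 and 1.73 for cluster 16. The cause of these moves was not tested, apart from those that a denominator or filter makes by construction. The alternatives for clusters, contrary names and strata within clusters were chosen after seeing the data. No paired analysis was possible because each group has 1 library, and leaving out a library leaves its group empty. The 63 NT members limit every ratio to NT.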

Other observations

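Further deposited columns gave the members coarser names. Version 8 of the SCSA names, which come from a marker list per the header, called 415 of 434 members macrophages, with 56 of 63 in NT, 199 of 209 in LGG and 160 of 162 in HGG, and 12 microglia, 7 of them in NT. The column headed final cell type called 409 members Macrophage Cluster 1, among them 244 of the 248 in cluster 15 and 133 of the 138 in cluster 16. This layer thus held most of both clusters under 1 name.

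Although every member had cycle scores below the limit, the deposited phase column called 263 members G1, 93 S and 78 G2M. S was given to 65 of 248 members of cluster 15 and 19 of 138 of cluster 16, and G2M to 30 and 33. These phase calls rest on scores near 0 and are given as deposited, with no reading as cycling.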
